A study of Mus musculus with 44 samples.

Results

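The liver sinusoid is lined by an endothelium unlike that of other capillary beds, and 10 genes that mark it or mark endothelium in general were followed here. The sinusoidal genes were Stab1, Stab2, Lyve1, Clec4g and Fcgr2b, and the general endothelial genes Pecam1 and Kdr. Vwf and Cd34 are more typical of continuous capillaries and larger vessels. Plvap was listed with them as a capillary gene, but its protein builds diaphragms of endothelial pores. The 10 genes were taken as a listed set, by symbol, from the raw count table of 35249 Ensembl genes. All 10 were found, and all 10 passed the filter on low counts. Liver RNA of 44 mice was sequenced, 1 library per mouse, in 9 groups given by genotype and diet. WT mice were compared with Ripk3-/- mice, which lack the kinase that triggers necroptosis (a lytic form of programmed cell death), and with Mlkl-/- mice, which lack the pore-forming protein that carries it out. Feeding began at 2 months of age and lasted 6 months, with a normal chow (control diet) or with food lacking choline that was either low in fat (CD-LFD) or high in fat (CD-HFD). There were 6 WT mice on each diet, 6, 3 and 4 Ripk3-/- mice on control diet, CD-LFD and CD-HFD, and 6, 4 and 3 Mlkl-/- mice in the same order. The RNA came from pieces of whole liver, and the labels do not say whether a piece held tumour.

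Sinusoidal endothelial cells carry open pores, the fenestrae, and clear waste from the blood through scavenger receptors such as stabilins and Fc receptors. Their identity is held up in part by vascular endothelial growth factor (VEGF), which signals through the receptor encoded by Kdr. In chronic liver injury these cells are known to lose fenestrae and scavenger receptors and to gain features of ordinary capillaries, a change called capillarization, and CD34 is a classical marker of it.

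Kdr fell and Cd34 rose on both choline-deficient diets in WT mice, and these were the largest changes among the 10 genes. Kdr was 4.14-fold lower on CD-HFD than on control diet, and Cd34 was 10.7-fold higher. The sinusoidal genes did not move as a block. Clec4g and Stab2 fell on CD-HFD, Stab1 rose, and the changes of Lyve1 and Fcgr2b did not pass the test. The Stab2 call was lost with clock phase in the model (adjusted p = 0.0976), without a pair of control libraries (0.0717) and when libraries were scaled by their total counts alone (library-size scaling, 0.380), and the Stab1 call held in only 3 of 12 fits that left out 1 mouse. Cd34 also rose in Mlkl-/- mice. Their response of Kdr to CD-HFD differed from that of WT by a test of that difference.

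Depth ranged from 2476268 to 12471844 counts over 43 libraries, with 88204703 in the remaining one, WT CD-LFD replicate 3. Values are CPM (each library's counts brought to a common total) scaled by the trimmed mean of M values (TMM), and a gene is called changed when its adjusted p from the edgeR quasi-likelihood F test over all 14862 tested genes is under 0.05. Ripk3 held 0 to 9 counts in the Ripk3-/- libraries, the 9 in control replicate 5, at 1.26 CPM and so inside the WT control range of 0.510 to 4.87 CPM. The Mlkl transcript was still counted in every Mlkl-/- library. On control diet it was 1.46 to 3.03 CPM in Mlkl-/- mice and 2.28 to 6.14 in WT mice, and on CD-LFD 2.98 to 4.15 and 9.84 to 14.5. On CD-HFD the library labelled Mlkl-/- replicate 1 held 12.5 CPM (72 counts), under the WT range of 14.2 to 17.6 on that diet but above every WT control mouse and far above the 4.82 and 2.79 CPM of the other 2 Mlkl-/- mice. Without it 3 in place of 5 members were called between CD-HFD and control diet in Mlkl-/- mice, and the lost calls were Pecam1 and Plvap. The other Mlkl-/- calls that use this library also passed without it, as did the calls of Ripk3-/- mice without control replicate 5. A pair of WT control libraries, replicates 5 and 6, stood apart for several members: they held the highest Stab1 and Stab2 and the lowest Kdr, Pecam1 and Plvap of their group. They also had the largest share of counts in predicted genes among the WT control libraries, 0.557% and 0.757% against 0.321% to 0.367%. WT CD-LFD replicates 5 and 6, which the fits without the pair keep, held 0.656% and 0.670%, against 0.382% to 0.495% in the rest of their group. On CD-HFD the share was 0.439% to 0.579% in WT mice. In Ripk3-/- mice it was 0.293% to 0.421% on control diet and 0.443% to 0.546% on CD-HFD, and in Mlkl-/- mice 0.309% to 0.367% and 0.380% to 0.517%. Its part in the results was not tested. The ratio of the clock genes Arntl and Dbp split the libraries by phase: 4 of 6 WT control libraries (replicates 1, 3, 5 and 6), 6 of 6 WT CD-LFD, 1 of 6 WT CD-HFD (replicate 3) and 0 knockout libraries lay on the high side. Calls that were lost without the pair or with clock phase in the model are given beside each gene. The phase term can be estimated only from the WT control and WT CD-HFD groups, since the others lie on a single side. A call lost with clock phase in the model therefore does not show an effect of phase.

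Before the single genes, the counts of members were set against the share of all tested genes called in the same comparison. In WT mice 7 of 10 were called between CD-HFD and control diet, where 47.7% of all genes were called: 3 rose, against a background of 23.5% higher, and 4 fell, against 24.1% lower. Between CD-LFD and control diet 5 of 10 were called, with 27.7% of all genes called, 1 higher (13.7% of all genes) and 4 lower (14.0%). Between the choline-deficient diets, CD-HFD and CD-LFD, 4 of 10 were called against 21.1% of all genes. The Ripk3-/- counts were 5 of 10 on CD-HFD (46.3% of all genes; 2 higher against 24.6%, 3 lower against 21.7%), 5 of 10 on CD-LFD (24.1%; 2 higher against 14.0%, 3 lower against 10.1%) and 1 of 10 between the choline-deficient diets (8.83%). For Mlkl-/- mice they were 5 of 10 on CD-HFD (45.2%; 4 higher against 24.9%, 1 lower against 20.3%), 4 of 10 on CD-LFD (37.9%; 1 higher against 19.7%, 3 lower against 18.3%) and 3 of 10 between the choline-deficient diets (23.7%). As shares the members' counts on CD-HFD in the knockouts were close to those of all genes. The split of all genes depends on the scaling: under library-size scaling 6813 were called higher and 1020 lower in WT mice on CD-HFD, in place of 3496 and 3586, and the median of all genes was 0.43 in place of -0.07. On that scale the WT changes of Stab2, Clec4g and Pecam1 on CD-HFD did not pass, while those of Lyve1 (0.95, adjusted p = 0.0151), Fcgr2b and Vwf did, as did the CD-LFD change of Plvap (0.66, adjusted p = 0.0110).

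**Figure D1:**
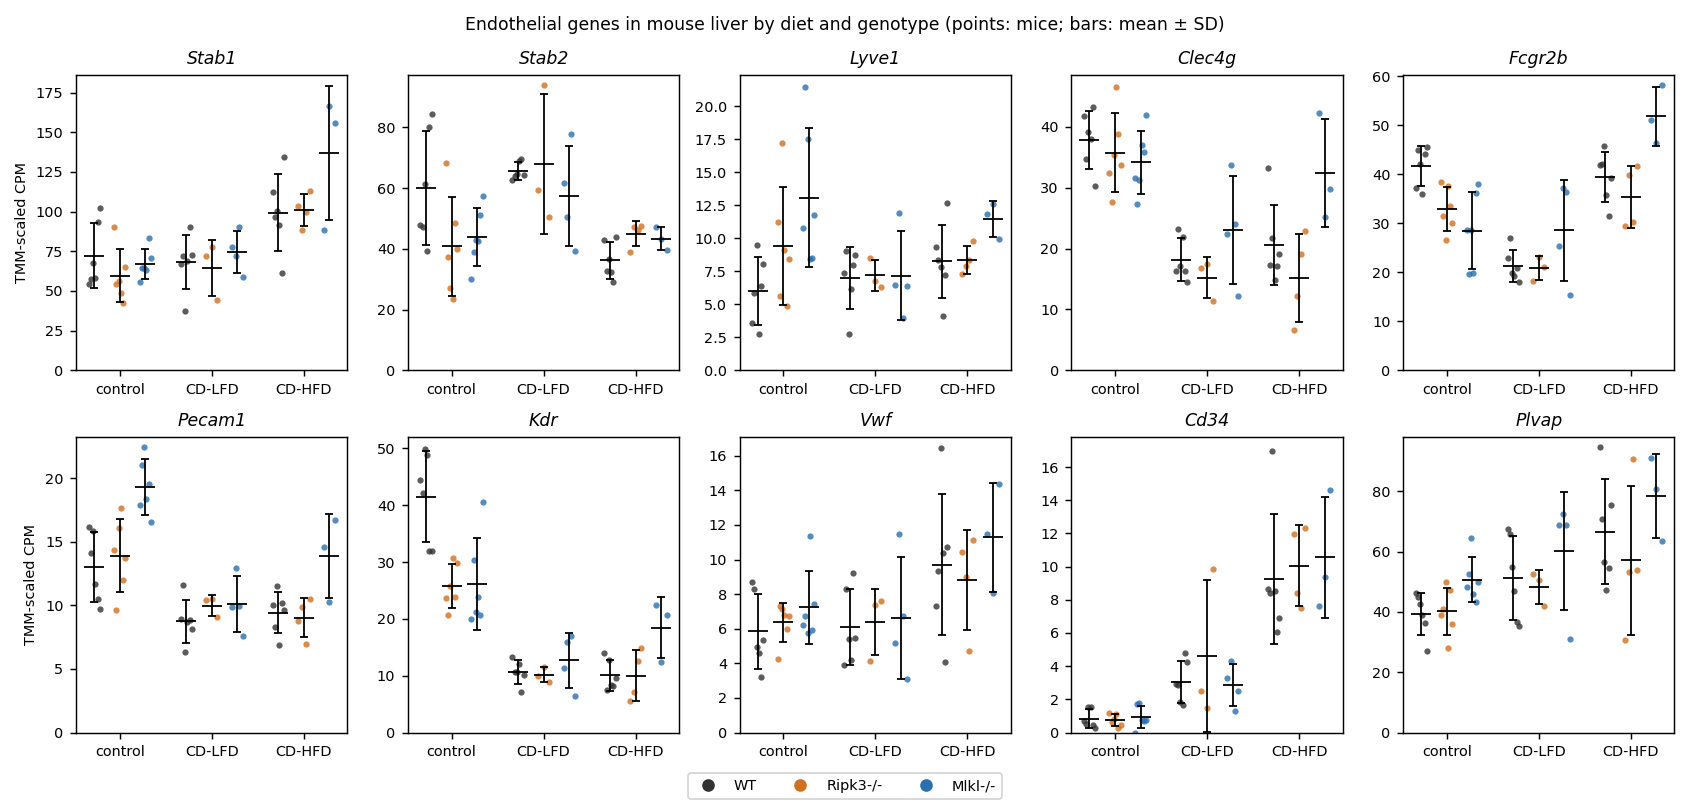
Level of each of the 10 genes in every mouse, as TMM-scaled CPM on a linear axis from 0, by diet (x axis) and genotype (colour); bars are the group mean ± SD. Kdr is highest in WT mice on control diet and low on both choline-deficient diets, while Cd34 is under 2 CPM in every control mouse and over 6 CPM in every CD-HFD mouse.

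Per kilobase of exon, the scale on which genes can be compared, Plvap had the highest mean level of the 10 in WT control livers (19.8 CPM per kb), ahead of Clec4g (15.4), Fcgr2b (7.20), Stab1 (7.03) and Stab2 (6.85). Kdr stood at 4.598, Pecam1 at 2.09 and Lyve1 at 2.06 CPM per kb. The lowest levels were those of Vwf (0.364) and Cd34 (0.113), so that all 5 sinusoidal genes but Lyve1 lay above Kdr, Pecam1, Vwf and Cd34. On CD-HFD the Cd34 level in WT livers was 1.27 CPM per kb, above the 1.12 of Kdr. Exon lengths were those of GENCODE M21.

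Kdr encodes VEGF receptor 2, the main signalling receptor for VEGF-A on endothelium. In WT control livers it ranged from 31.9 CPM over a median of 43.3 to 49.8 (mean 41.5 ± 7.95, SD, n = 6). On CD-LFD the lowest, median and highest values were 7.15, 10.7 and 13.4 CPM (mean 10.7 ± 2.09, n = 6), and on CD-HFD they were 7.41, 9.05 and 14.1 (10.1 ± 2.73, n = 6). Every WT mouse on either choline-deficient diet lay below every WT control mouse, including control replicates 5 and 6 at 31.9 CPM each. Relative to controls Kdr stood at a log2 change of -2.05 on the high-fat diet (SE 0.22, edgeR adjusted p = 5.93e-10) and of -1.97 on the low-fat one (SE 0.22, adjusted p = 1.07e-08). The log2 difference between the choline-deficient diets was -0.08, with an interval of -0.518 to 0.355. With clock phase in the model the fall on CD-HFD was -2.03, and within the low-ratio libraries Kdr was 42.2 and 48.8 CPM in the 2 control mice against 7.41 to 14.1 CPM in the 5 CD-HFD mice.

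On control diet the mean of Kdr was lower in both knockouts than in WT. The Ripk3-/- control mice held 20.7, 24.8 and 30.7 CPM at their lowest, median and highest, all below the WT control mice, and the log2 difference of -0.70 narrowly missed the threshold (adjusted p = 0.0525). It passed under DESeq2 (-0.72, adjusted p = 0.0185), under another scaling and without the WT pair 5 and 6 (-0.85, adjusted p = 0.0372), and without WT control replicate 6 alone (-0.76, adjusted p = 0.0497). The Mlkl-/- control mice held 20.0, 22.6 and 40.5 CPM, overlapping WT only through the highest mouse. Their difference of -0.675 (SE 0.214) passed (adjusted p = 0.0165), but with clock phase in the model it was -0.64 and did not (adjusted p = 0.0858).

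From that lower start Kdr fell in Ripk3-/- mice to 9.98, 11.6 and 8.97 CPM with CD-LFD and to 5.48, 7.11, 12.6 and 14.9 CPM on CD-HFD, all below their controls. The changes were -1.35 (SE 0.29, adjusted p = 0.000648) and -1.34 (SE 0.25, adjusted p = 3.06e-05). The Mlkl-/- mice held 11.4, 15.9, 17.0 and 6.39 CPM on CD-LFD, below all Mlkl-/- controls, with a change of -1.05 (SE 0.25, adjusted p = 0.00128). On CD-HFD they held 22.4, 12.4 and 20.6 CPM, of which 2 lay within the control range, and the change of -0.50 did not pass (adjusted p = 0.126). It was 0.02 under library-size scaling (adjusted p = 0.960) and -0.66 without the library labelled replicate 1 (adjusted p = 0.0880), but -0.28 without replicate 2 (adjusted p = 0.503) and -0.33 without control replicate 6 (adjusted p = 0.314). The difference between the Mlkl-/- and WT responses to CD-HFD was 1.55 on the log2 scale (SE 0.34, adjusted p = 0.00700), where 4.12% of all genes were called. Without that library it was 1.39 (adjusted p = 0.0303). That value combines a lower Mlkl-/- level on control diet with a higher one on CD-HFD, 18.5 ± 5.36 CPM (n = 3) against 10.1 in WT, a direct difference of 0.87 that did not pass on its own (adjusted p = 0.568). On CD-LFD the difference in response was 0.92 and did not pass (adjusted p = 0.0693). It passed by DESeq2 (adjusted p = 0.0433), without the WT pair 5 and 6 (1.07, adjusted p = 0.0323), and without Mlkl-/- control replicate 6 (1.09, adjusted p = 0.0189) or CD-LFD replicate 4 (1.14, adjusted p = 0.0252).

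Pecam1, the adhesion molecule CD31 of endothelial junctions, changed less. WT control mice held 9.75, 12.9 and 16.1 CPM (lowest, median, highest), CD-LFD mice 6.35, 8.78 and 11.6, and CD-HFD mice 6.91, 9.84 and 11.5. The ranges overlapped, and the log2 changes were -0.61 (SE 0.17, adjusted p = 0.00523) and -0.48 (SE 0.16, adjusted p = 0.0145). The CD-HFD call was lost without WT control replicate 1 (-0.40, adjusted p = 0.0542), with clock phase in the model (-0.40, adjusted p = 0.0848), with no filter on low counts (adjusted p = 0.0971), with only the compared groups (adjusted p = 0.0596) and under library-size scaling, where the change was 0.02. The CD-LFD call was lost under library-size scaling (-0.29, adjusted p = 0.195) and with only the compared groups (-0.58, adjusted p = 0.0550). Ripk3-/- controls spanned 9.62 to 17.6 CPM around a median of 14.0, against 10.4, 10.5 and 9.05 CPM on CD-LFD (-0.49, adjusted p = 0.0741) and 8.80, 9.85, 6.98 and 10.5 CPM on CD-HFD (-0.62, SE 0.18, adjusted p = 0.00475), a call lost under library-size scaling (-0.09, adjusted p = 0.715). The Mlkl-/- controls were the highest group at 16.5, 19.0 and 22.5 CPM (mean 19.3 ± 2.18), above every WT control mouse, with a difference of 0.55 (SE 0.16, adjusted p = 0.0104) that was 0.41 without the WT pair 5 and 6 (adjusted p = 0.0969) and also did not pass with only the compared groups (adjusted p = 0.0548). From there it fell to 9.91, 12.9, 9.93 and 7.58 CPM on CD-LFD (-0.94, SE 0.18, adjusted p = 0.000131), all below the controls. On CD-HFD the 3 Mlkl-/- mice held 14.6, 10.3 and 16.8 CPM, a change of -0.48 (SE 0.20, adjusted p = 0.0449) that was lost without CD-HFD replicate 2 (-0.30, adjusted p = 0.308), CD-HFD replicate 1 or control replicates 2, 3 or 5. It was also lost by DESeq2 (adjusted p = 0.0762), relative log expression (RLE) scaling (0.0818), no filter (0.110) and the compared groups alone (0.1095), and was 0.05 under library-size scaling.

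Promoter sequences of 3 members are shown because they stand at the ends of the pattern: Kdr and Clec4g, which fell on choline-deficient diets and varied together between mice, and Cd34, which rose. Each is the 250 bases before the RefSeq start on GRCm38.p6, 5′ to 3′ on the gene's strand, at chr5:75978456-75978705 (minus strand) for Kdr, chr8:3720652-3720901 (minus) for Clec4g and chr1:194938571-194938820 (plus) for Cd34. Capitals mark AGGAAG, or CTTCCT on the other strand, which is a form of ETS binding site. ETS factors are a family that includes the endothelial regulators ERG and ETS1. The shorter core GGAA that such sites share is not marked.
Kdr: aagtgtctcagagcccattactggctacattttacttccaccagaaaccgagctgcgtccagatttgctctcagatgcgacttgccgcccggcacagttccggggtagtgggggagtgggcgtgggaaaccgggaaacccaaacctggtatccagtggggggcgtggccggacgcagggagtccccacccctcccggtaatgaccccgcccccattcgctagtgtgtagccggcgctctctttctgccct
Clec4g: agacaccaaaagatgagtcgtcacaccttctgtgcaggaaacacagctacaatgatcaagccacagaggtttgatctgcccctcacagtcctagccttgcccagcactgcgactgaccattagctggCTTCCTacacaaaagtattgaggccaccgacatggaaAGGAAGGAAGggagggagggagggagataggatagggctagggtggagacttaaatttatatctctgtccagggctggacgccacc
Cd34: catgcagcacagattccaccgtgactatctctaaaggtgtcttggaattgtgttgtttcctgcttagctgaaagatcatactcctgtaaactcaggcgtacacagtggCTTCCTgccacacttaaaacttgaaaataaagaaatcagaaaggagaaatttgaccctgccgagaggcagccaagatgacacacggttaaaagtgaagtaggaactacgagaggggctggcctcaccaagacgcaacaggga
The Clec4g window holds AGGAAG on either strand 3 times, 2 of these overlapping, the Cd34 window once, and the Kdr window not at all. The Kdr window does hold the shorter GGAA core on the other strand, as in acttcc. Of the 10 members 6 had an entry in the set of RefSeq promoters used here (these 3 and Stab1, Stab2 and Fcgr2b). Of the 6, 4 hold AGGAAG on either strand, against 29.5% of 32851 promoter windows of this length. TGTTTAC, a form of FOX site, and AGATAA, a form of GATA site, were searched on both strands. They were in 0 of the 6 and in 3.17% and 9.99% of all windows. Other forms, such as the AGATAG that stands in the Clec4g window, were not searched. The Kdr window is the richest of the 3 in G and C, at 61.6%, against 52.0% for Clec4g and 46.4% for Cd34. A match of letters shows no binding, and none was measured here.

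Clec4g encodes LSECtin, a C-type lectin of sinusoidal and lymph node endothelium. WT control livers held 30.2, 38.6 and 43.3 CPM (lowest, median, highest). On CD-LFD the same values were 14.5, 16.7 and 23.1 CPM, below every control mouse, and the change was -1.06 (SE 0.22, adjusted p = 0.000275). On CD-HFD they were 14.8, 18.3 and 33.2, with only replicate 1 reaching the control range, and the change was -0.88 (SE 0.21, adjusted p = 0.000732). Clec4g also fell in Ripk3-/- mice, from 27.6, 34.5 and 46.6 CPM on control diet to 16.8, 17.5 and 11.3 on CD-LFD (-1.25, adjusted p = 0.00102) and 6.64, 12.3, 19.1 and 22.8 on CD-HFD (-1.21, adjusted p = 7.92e-05), with no overlap on either diet. In Mlkl-/- mice the controls spanned 27.3 to 42.0 CPM around 33.7, the CD-LFD mice held 22.4, 33.8, 24.0 and 12.2 (-0.57, adjusted p = 0.0563) and the CD-HFD mice 42.2, 25.1 and 29.8 (-0.08, adjusted p = 0.819). The CD-LFD change passed in 2 of 10 fits that left out 1 mouse, and was -0.36 (adjusted p = 0.257) without CD-LFD replicate 4. The difference of the CD-HFD response from WT was 0.80 with an interval of 0.15 to 1.45, and did not pass (adjusted p = 0.166). Without the library labelled CD-HFD replicate 1, which held the 42.2 CPM, the CD-HFD change was -0.32 (adjusted p = 0.411). The response difference was then 0.56 (adjusted p = 0.426). The CD-HFD call in WT was lost under library-size scaling (-0.37, adjusted p = 0.146).

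Fcgr2b, the inhibitory Fc gamma receptor with which sinusoidal cells take up immune complexes, separated the choline-deficient diets from each other. In WT mice the lowest, median and highest values were 35.9, 43.2 and 45.6 CPM on control diet. They were 18.1, 20.4 and 27.1 with CD-LFD feeding, against 31.6, 40.6 and 45.8 with CD-HFD. All CD-LFD mice lay below all mice of the other diets. The change was -0.96 on CD-LFD against control (SE 0.17, adjusted p = 2.88e-05) and 0.89 on CD-HFD against CD-LFD (SE 0.16, adjusted p = 7.68e-05), whereas CD-HFD against control was -0.08 (interval -0.40 to 0.24, adjusted p = 0.722; 0.42 under library-size scaling, which passed). In Ripk3-/- mice CD-LFD was again the lowest diet without overlap, with control values of 26.5 to 38.4 CPM around 32.6, 18.3, 23.2 and 21.1 on CD-LFD (-0.66, adjusted p = 0.0177) and 29.6, 39.8, 30.3 and 41.7 on CD-HFD (0.76 above CD-LFD, adjusted p = 0.0217). Their mean was 35.3 CPM on CD-HFD and 33.0 on control diet, a change of 0.10 that did not pass. The Ripk3-/- calls rest on few mice: the first was lost without CD-LFD replicate 1 (adjusted p = 0.0914) or 3 (0.0817) and under library-size scaling (-0.35, adjusted p = 0.219), and the second in 5 of 7 fits that left out 1 mouse.

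In Mlkl-/- mice Fcgr2b started lower, at 19.7, 28.6 and 38.1 CPM on control diet (-0.54 against WT, SE 0.16, adjusted p = 0.0124). That call was lost with clock phase in the model (-0.45, adjusted p = 0.131), without the WT pair 5 and 6 (-0.49, adjusted p = 0.0559) and with only the compared groups (adjusted p = 0.0703). It was 25.5, 37.2, 36.4 and 15.3 CPM on CD-LFD, a change of 0.00 (interval -0.36 to 0.36), and 51.1, 46.3 and 58.3 on CD-HFD, above every Mlkl-/- control and every WT mouse. The CD-HFD rise was 0.86 (SE 0.19, adjusted p = 0.000320). The Mlkl-/- response differed from that of WT by 0.96 on CD-LFD (SE 0.24, adjusted p = 0.0108), where 8.45% of all genes were called, and by 0.94 on CD-HFD (SE 0.25, adjusted p = 0.0271). With only the compared groups neither passed (0.92, adjusted p = 0.0613, and 0.89, adjusted p = 0.0642). The second was also lost with clock phase in the model (0.87, adjusted p = 0.0614), with no filter on low counts (0.86, adjusted p = 0.0828) and without Mlkl-/- CD-HFD replicate 4 (0.85, adjusted p = 0.108). Fcgr2b, like Stab1, Stab2, Clec4g, Cd34 and Plvap, overlaps an annotated gene on the opposite strand, and whether the counting used strand is not given in the sources used here. It is also carried by B cells and macrophages, and shares near-identical sequence with the Fcgr3 receptor gene, so that its counts are less certain than those of single-copy members.

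Stab1 and Stab2 encode the stabilins, paired scavenger receptors of sinusoidal cells, of which stabilin-1 is also found on macrophages. Stab1 in WT mice was 54.6, 62.9 and 102 CPM (lowest, median, highest) on control diet. CD-LFD mice held 37.3, 70.8 and 90.4 CPM and CD-HFD mice 61.2, 98.6 and 134. The ranges overlapped, and the CD-HFD change of 0.46 (SE 0.20, adjusted p = 0.0492) held in only 3 of 12 fits that left out 1 mouse, those without control replicates 5 or 6 or CD-HFD replicate 5, with adjusted p of 0.0135 to 0.151 over the 12, and was lost with only the compared groups (0.48, adjusted p = 0.0890). Stab1 also rose in Ripk3-/- mice, where CD-HFD livers held 103, 88.2, 99.9 and 113 CPM against 42.7, 55.3 and 90.3 (lowest, median, highest) on control diet (0.77, SE 0.22, adjusted p = 0.00358; against 71.8, 77.5 and 44.3 on CD-LFD). In Mlkl-/- mice it went from 56.0, 64.5 and 83.5 CPM on control diet and 77.7, 71.9, 90.2 and 58.6 on CD-LFD to 88.3, 166 and 156 on CD-HFD, all above the controls (1.03, SE 0.23, adjusted p = 0.000353). The differences of these responses from WT did not pass, at 0.30 (adjusted p = 0.790) and 0.565 (adjusted p = 0.323). Against CD-LFD, Stab1 was higher on CD-HFD by 0.55 in WT mice (adjusted p = 0.0403; lost in 8 of 12 fits that left out 1 mouse, with no filter on low counts and with only the compared groups) and by 0.88 in Mlkl-/- mice (adjusted p = 0.0104; lost without CD-HFD replicate 2, at 0.71 and 0.0729, or 4, at 0.77 and 0.0693).

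Stab2, the more strictly sinusoidal of the pair and a receptor for hyaluronan, was 39.3, 54.5 and 84.3 CPM in WT controls, 62.7, 64.4 and 69.4 among CD-LFD mice, and 29.1, 34.6 and 44.1 among CD-HFD mice. No CD-HFD mouse reached the CD-LFD range, with a change of -0.85 between those diets (SE 0.20, adjusted p = 0.00127). Against control diet the change was -0.72 (SE 0.20, adjusted p = 0.00285), and control replicates 5 and 6 held the high values of 80.2 and 84.3 CPM. Without that pair it was -0.43 (adjusted p = 0.0717), and under library-size scaling -0.22 (adjusted p = 0.380). By clock ratio, the 2 low-ratio control libraries held 39.3 and 47.1 CPM and the 4 high-ratio ones 47.7, 61.2, 80.2 and 84.3, the last 2 being that pair. Among CD-HFD mice the 1 high-ratio library, at 36.7 CPM, lay inside the range of the 5 low-ratio ones. With phase in the model the falls were -0.48 against control (adjusted p = 0.0976) and -0.51 against CD-LFD (adjusted p = 0.258), and neither passed. In the knockouts the CD-HFD change of Stab2 did not pass: Ripk3-/- mice held 39.0, 47.2, 46.3 and 47.5 CPM against 23.6, 38.6 and 68.3 on control diet (0.15, adjusted p = 0.616), and Mlkl-/- mice 47.1, 43.3 and 39.8 against 29.9, 42.7 and 57.5 (-0.02, adjusted p = 0.966). Neither response differed from WT by its own test (0.86, adjusted p = 0.195 and 0.70, adjusted p = 0.203). On CD-LFD it was 59.5, 93.9 and 50.5 CPM in Ripk3-/- mice (0.73, SE 0.24, adjusted p = 0.0212; lost without CD-LFD replicate 2, at 0.43 and adjusted p = 0.242, or control replicates 3 or 4, and with only the compared groups, at adjusted p = 0.0915) and 61.8, 50.5, 77.8 and 39.3 in Mlkl-/- mice (0.39, adjusted p = 0.158).

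Lyve1, a hyaluronan receptor shared by sinusoidal and lymphatic endothelium and some resident macrophages, was counted at low levels. WT mice held 2.76, 6.12 and 9.52 CPM on control diet (9 to 56 counts), with 2.72, 7.70 and 9.04 among CD-LFD mice and 4.10, 8.11 and 12.7 among CD-HFD mice. No WT diet change passed (0.17 on CD-LFD, adjusted p = 0.732, and 0.45 on CD-HFD, adjusted p = 0.2503). Mlkl-/- controls were the highest group, at 8.45, 11.3 and 21.5 CPM, overlapping WT controls only at the low end (1.10, SE 0.32, adjusted p = 0.00816). On CD-LFD the Mlkl-/- mice held 6.44, 11.9, 4.004 and 6.39 CPM (-0.86, SE 0.34, adjusted p = 0.0414), a call lost in 5 of 10 fits that left out 1 mouse and under RLE (adjusted p = 0.0530) and library-size scaling (0.1065), and on CD-HFD 11.8, 12.6 and 9.97 (-0.18, adjusted p = 0.706). In Ripk3-/- mice the control values spanned 4.88 to 17.3 CPM around 8.77, and CD-LFD (8.53, 6.74 and 6.33) and CD-HFD (7.30, 7.88, 8.38 and 9.79) lay inside that range.

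Cd34 encodes a sialomucin of capillary and larger-vessel endothelium, of blood stem cells and of some fibroblasts. In WT controls it was nearly absent, with 1 to 9 counts per library and 0.244, 0.589 and 1.54 CPM at the lowest, median and highest. CD-LFD mice held 1.67, 2.91 and 4.81 CPM and CD-HFD mice 6.03, 8.46 and 17.0. The 3 diets did not overlap, and each step passed: 1.80 from control to CD-LFD (SE 0.49, adjusted p = 0.00523), 1.62 from CD-LFD to CD-HFD (SE 0.36, adjusted p = 0.000760), and 3.42 from control to CD-HFD (SE 0.46, adjusted p = 6.27e-08). Without the WT pair 5 and 6 the last was 3.14, and with clock phase in the model 3.80.

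Cd34 also rose on CD-HFD in both knockouts. Ripk3-/- mice went from 0.279, 0.721 and 1.16 CPM on control diet to 11.95, 8.43, 7.504 and 12.3 on CD-HFD (3.73, SE 0.47, adjusted p = 1.74e-08), and Mlkl-/- mice from 0, 0.737 and 1.76 to 7.65, 9.37 and 14.6 (3.44, SE 0.47, adjusted p = 8.98e-08). The differences from the WT response were 0.31 (interval -1.08 to 1.708) and 0.03 (interval -1.502 to 1.555) on the log2 scale, so that they are poorly bounded. On CD-LFD the Mlkl-/- mice held 3.30, 4.32, 1.28 and 2.53 CPM (1.57, SE 0.48, adjusted p = 0.0101). The Ripk3-/- CD-LFD mice held 2.496, 1.47 and 9.88, and their change of 2.74 (adjusted p = 0.000129) rested on replicate 3, without which it was 1.40 (adjusted p = 0.155).

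Plvap builds the diaphragms of endothelial fenestrae and caveolae. WT controls held 27.1, 40.8 and 46.3 CPM, the CD-LFD mice 35.3, 50.9 and 67.4, and CD-HFD mice 47.2, 63.7 and 94.7. All CD-HFD mice lay above all controls, and the change of 0.75 passed (SE 0.21, adjusted p = 0.00276). The CD-LFD change of 0.37 did not pass (adjusted p = 0.180). Ripk3-/- mice spread widely on CD-HFD, at 30.7, 53.1, 90.7 and 54.0 CPM against 28.2, 39.9 and 49.8 on control diet (0.51, adjusted p = 0.0622; 0.59 and 0.0275 by DESeq2, 0.20 and 0.522 without CD-HFD replicate 3, which held the 90.7), and held 52.6, 50.5 and 41.9 on CD-LFD. Mlkl-/- mice held 43.3, 49.0 and 64.4 CPM on control diet, 68.8, 72.3, 68.7 and 30.9 after CD-LFD and 91.1, 80.8 and 63.4 after CD-HFD, a rise of 0.63 (SE 0.25, adjusted p = 0.0336) that passed in 4 of 9 fits that left out 1 mouse and was lost without CD-HFD replicate 1 (0.51, adjusted p = 0.146), CD-HFD replicate 2, control replicates 1, 4 or 5, or the filter on low counts (adjusted p = 0.0591).

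Vwf encodes von Willebrand factor, the clotting protein stored in large-vessel endothelium and platelets. It was 3.19, 5.15 and 8.69 CPM in WT controls, 3.90, 5.44 and 9.25 among CD-LFD mice and 4.10, 9.86 and 16.4 among CD-HFD mice. The ranges overlapped, and the CD-HFD change of 0.68 (SE 0.29) sat at the threshold, with an adjusted p of 0.0505 by edgeR. It passed by DESeq2 (adjusted p = 0.0248), under RLE scaling (0.0317), with clock phase in the model (0.85, adjusted p = 0.0283) and under library-size scaling (1.19, adjusted p = 0.00134). It also passed in 4 of 12 fits that left out 1 mouse, and was 0.46 (adjusted p = 0.193) without CD-HFD replicate 3. The knockouts' changes on CD-HFD were 0.46 (adjusted p = 0.230; 10.5, 8.97, 4.71 and 11.2 CPM) and 0.64 (adjusted p = 0.118; 11.5, 8.07 and 14.4 CPM). By the edgeR fit with TMM scaling Vwf passed in none of the 9 diet comparisons, while under library-size scaling both knockout changes on CD-HFD passed (adjusted p = 0.0110 and 0.00581), and the Mlkl-/- one also with only the compared groups (0.0428).

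**Figure D2:**
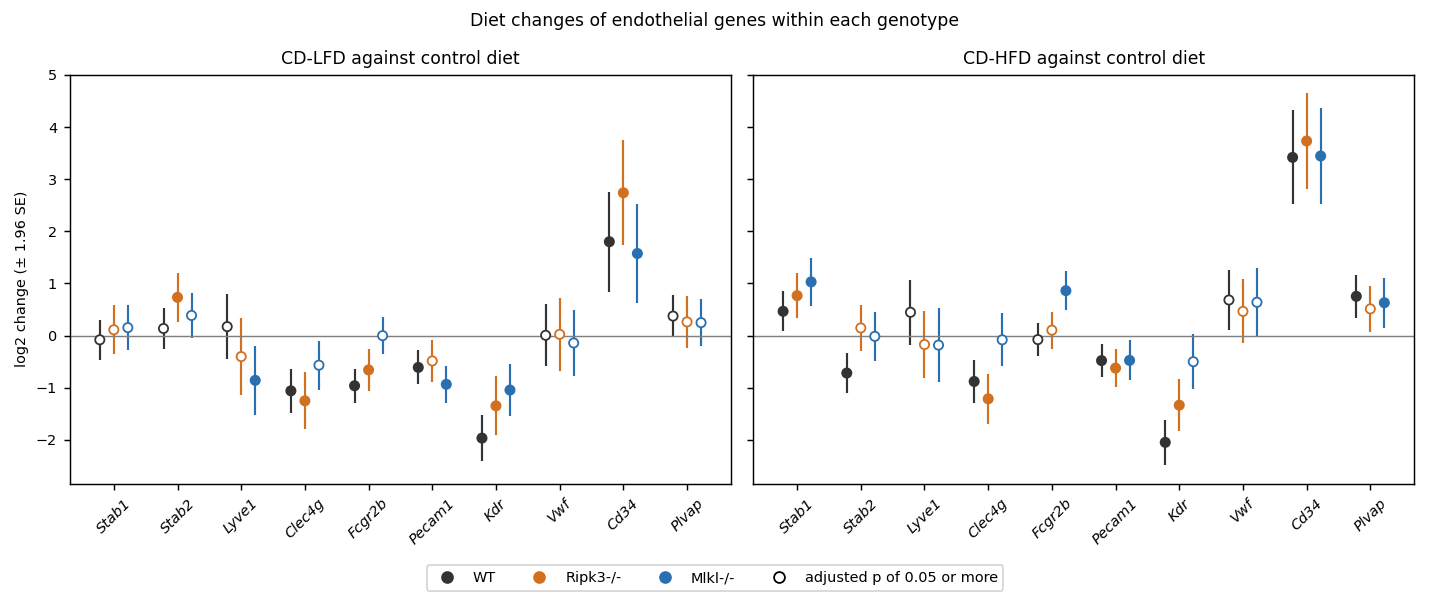
Log2 change of each gene (x axis) against control diet within each genotype (colour), for CD-LFD on the left and CD-HFD on the right, with bars for the interval of each change from the edgeR fit; filled points have an adjusted p under 0.05. Cd34 is the highest point in every genotype on both diets, and Kdr on CD-HFD ranges from -2.05 in WT to -0.50 in Mlkl-/- mice.

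In whole liver, fewer cells of a type and less RNA per cell cannot be told apart. The level of each gene was therefore also expressed within each library against Pecam1, as a difference of log2 CPM with a prior count of 2 added to both, and is given as a description. The prior moves this value for genes with few counts. In WT livers Kdr stood 1.66 ± 0.20 log2 units above Pecam1 on control diet (n = 6), 0.28 ± 0.40 above it after CD-LFD and 0.07 ± 0.29 after CD-HFD, without overlap between control and either other diet. Cd34 stood at -3.80 ± 0.67 on control diet, below Pecam1, then at -1.52 ± 0.55 and -0.09 ± 0.48. From counts summed over each group, with no prior, the Cd34 value was -4.004 on control diet (23 counts against 369 of Pecam1) and -0.06 on CD-HFD (510 against 533). Plvap went from 1.59 ± 0.15 to 2.49 ± 0.42 and 2.77 ± 0.38, and Stab1 from 2.44 ± 0.65 to 2.90 ± 0.30 and 3.35 ± 0.45. Clec4g lost part of its lead, from 1.54 ± 0.29 to 1.04 ± 0.25 and 1.07 ± 0.33. Kdr relative to Pecam1 was already 0.39 ± 0.49 in Mlkl-/- controls (n = 6), and 0.25 ± 0.41 (n = 4) and 0.39 ± 0.19 (n = 3) on CD-LFD and CD-HFD. Within Mlkl-/- livers the means of this relative value thus differed by less than 1 SD. Kdr itself went there from a mean of 26.1 CPM on control diet to 12.7 on CD-LFD, while Pecam1 fell as well. In Ripk3-/- livers Kdr relative to Pecam1 went from 0.89 ± 0.19 (n = 6) to 0.02 ± 0.10 (n = 3) and 0.05 ± 0.72 (n = 4).

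**Figure D3:**
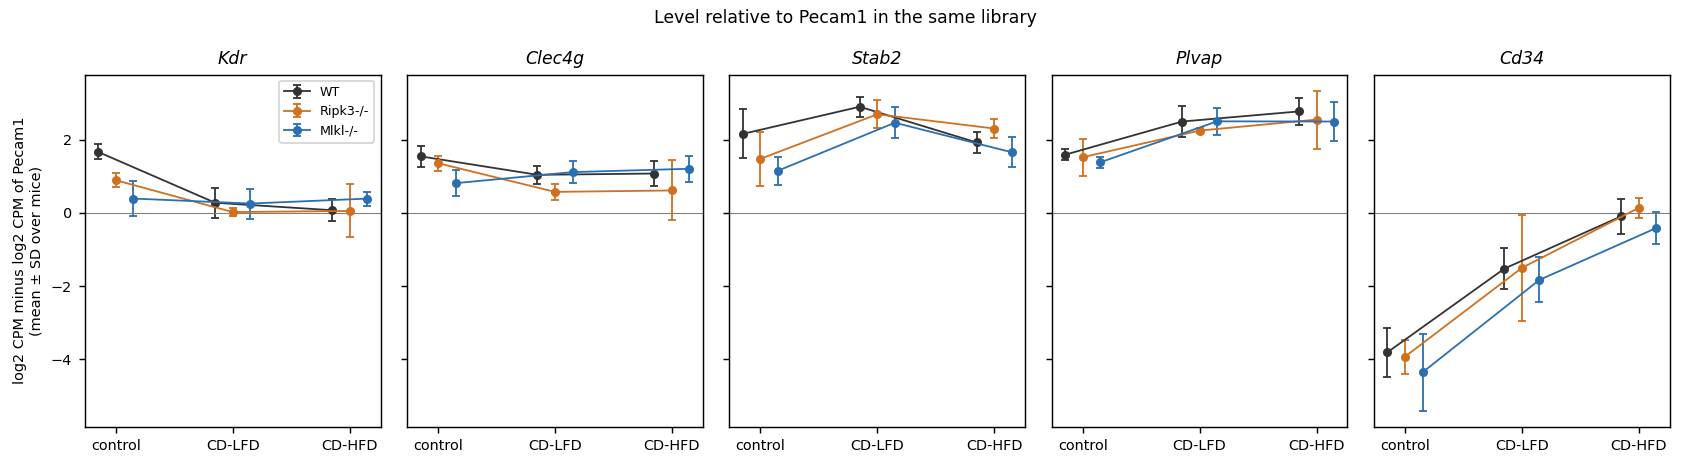
Mean ± SD over mice of the log2 level of 5 genes minus the log2 level of Pecam1 in the same library, by diet (x axis) and genotype (colour). Kdr converges near 0.39 or lower on both choline-deficient diets in all genotypes, and Cd34 climbs from about -3.80 in WT controls to -0.09 on CD-HFD.

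Outside the control diet, 0 members were called by edgeR between knockout and WT livers on the same diet. On control diet 0 of 10 members were called between Ripk3-/- and WT, where 4.47% of all genes were, and 4 of 10 between Mlkl-/- and WT (Lyve1 and Pecam1 higher, Fcgr2b and Kdr lower), where 27.1% were. On CD-LFD 0 of 10 were called in either knockout, against 1.1% and 2.56% of all genes, and on CD-HFD 0 of 10 in either, against 0.377% and 0.0%. Before adjustment, p was under 0.05 by edgeR for 3 members between Ripk3-/- and WT on control diet, 0 and 1 for Ripk3-/- and Mlkl-/- on CD-LFD, with 0 and 4 for the CD-HFD groups. The shares of all genes with such a p were 20.0% in the first comparison, 11.4% and 15.6% in the CD-LFD ones and 8.73% and 8.38% in the CD-HFD ones. DESeq2 called Kdr alone between Ripk3-/- and WT on control diet, 4 members between Mlkl-/- and WT on that diet, and 0 in the CD-LFD and CD-HFD comparisons. Intervals there were wide: the Mlkl-/- difference on CD-HFD was 0.65 for Clec4g (0.16 to 1.15), 0.55 for Pecam1 (0.176 to 0.932) and 0.40 for Fcgr2b (0.018 to 0.775). Tests of the responses themselves called 0 of 10 members in Ripk3-/- mice on CD-LFD (0.0269% of all genes) and CD-HFD (0.478%), with 0 and 2 at an unadjusted p under 0.05 (8.28% and 10.9% of all genes) and 0 by DESeq2, and in Mlkl-/- mice Fcgr2b alone on CD-LFD and Fcgr2b and Kdr on CD-HFD.

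In the order of group means only a few neighbours were further apart than the larger of their SDs. For Kdr these were WT control over Mlkl-/- control, Ripk3-/- control (25.7 ± 3.85 CPM) over Mlkl-/- CD-HFD, and Mlkl-/- CD-HFD over Mlkl-/- CD-LFD (12.7 ± 4.83), below which 5 groups lay together at 10.01 to 12.7 CPM. For Cd34 the steps lay between the CD-HFD groups (9.24 to 10.55 CPM) and the CD-LFD groups (2.86 to 4.62), and between those and the controls (0.745 to 0.943). Clec4g had 1 such step, between Mlkl-/- CD-HFD (32.4 ± 8.85) and Mlkl-/- CD-LFD (23.1 ± 8.84), with the controls above at 34.2 to 37.9. Fcgr2b, Pecam1, Stab1 and Plvap had 1 or 2 each, and Stab2, Lyve1 and Vwf had 0.

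Other endothelial genes were examined as 5 lists chosen from textbook roles. The lists were chosen with earlier results of these data known, so they are no independent check of the members. Their counts, medians and named changes are given with TMM scaling only. Under library-size scaling the median of all genes in WT mice on CD-HFD was 0.43 in place of -0.07, with 6813 called higher and 1020 lower. Of all tested genes 23.5% were called higher and 24.1% lower in WT mice on CD-HFD, and 13.7% and 14.0% on CD-LFD. In Ripk3-/- mice these shares were 24.6% and 21.7% on CD-HFD and 14.0% and 10.1% on CD-LFD, and in Mlkl-/- mice 24.9% and 20.3%, and 19.7% and 18.3%. Of 14 general endothelial genes, all tested, 12 fell and 0 rose in WT mice on CD-HFD (median log2 change -0.96, beside -0.07 over all genes tested). Cdh5, the cadherin of endothelial junctions, fell by 1.35 on the log2 scale from 19.5 ± 4.6 to 7.65 ± 2.28 CPM (adjusted p = 1.61e-05). Ptprb, the phosphatase that restrains the receptor TIE2, fell by 1.35 from 68.6 ± 8.64 to 27.0 ± 6.54 CPM (adjusted p = 6.23e-09), and the matrix protein gene Mmrn2 fell by 1.29 (adjusted p = 2.30e-05). On CD-LFD 11 fell (median -0.995), in Ripk3-/- mice 7 fell on CD-HFD (-0.64) and 8 on CD-LFD (-0.74), and in Mlkl-/- mice 8 fell on CD-LFD (-0.68) but 0 on CD-HFD, where 1 rose (-0.20). The summed level of the 14 was 256 to 384 CPM in WT controls, 143 to 200 after CD-LFD and 158 to 240 after CD-HFD, and in Mlkl-/- mice 187 to 271, 125 to 216 and 211 to 245.

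Of 10 further sinusoidal genes 9 were tested, and in WT mice 8 fell on CD-HFD (median -0.97) and 7 on CD-LFD (-1.27), with 0 rises. The secreted nuclease gene Dnase1l3 fell by 1.71 from 34.2 ± 9.91 to 10.6 ± 5.37 CPM (adjusted p = 4.95e-06), Oit3 by 1.70 from 19.5 ± 8.80 to 6.12 ± 2.40 CPM (adjusted p = 2.64e-05), and the scavenging chemokine receptor gene Gpr182 by 1.11 from 20.4 ± 5.53 to 9.49 ± 3.22 CPM (adjusted p = 1.86e-05). In Ripk3-/- mice 5 fell on either diet, while in Mlkl-/- mice 5 fell and 1 rose on CD-LFD and 1 fell and 1 rose on CD-HFD. For Dnase1l3 the Mlkl-/- change on CD-HFD was -0.50 (adjusted p = 0.249) and for Oit3 -0.62 (adjusted p = 0.189). Clec4g and Kdr moved in the direction of this list in WT mice, and Stab1 did not.

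Capillary and activation genes went the other way on CD-HFD. Of 15 listed 11 were tested, and in WT mice 6 rose and 1 fell (median 1.60). The largest rise was the fitted 4.30 of Ly6c1 (adjusted p = 0.000657), whose size is not established because it was nearly uncounted in controls, at 0.0407 ± 0.0996 against 1.01 ± 0.61 CPM. Pdgfb, the growth factor with which endothelium recruits pericytes and which macrophages and platelets also make, rose by 2.70 from 2.62 ± 1.75 to 16.0 ± 4.31 CPM (adjusted p = 1.26e-09). The adhesion molecule gene Vcam1 rose by 2.30 from 6.68 ± 3.12 to 33.6 ± 8.08 CPM (adjusted p = 7.40e-09), while the arterial transcription factor gene Sox17 fell by 0.74 (adjusted p = 0.0337). On CD-LFD 3 rose and 1 fell in WT mice (median 0.38). Ripk3-/- mice had 6 rises and 1 fall on CD-HFD and 1 rise on CD-LFD, and Mlkl-/- mice 5 rises on CD-HFD and 2 rises and 3 falls on CD-LFD.

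Of the ligands and receptors around Kdr, 12 of 13 VEGF and angiopoietin genes were tested, and in WT mice 2 rose and 6 fell on CD-HFD (median -0.42) and 0 rose and 6 fell on CD-LFD (-0.41). Tek, which encodes the angiopoietin receptor TIE2, fell by 1.24 from 8.42 ± 1.21 to 3.59 ± 1.09 CPM (adjusted p = 0.000126), Flt4, VEGF receptor 3, by 0.96 (adjusted p = 2.30e-05), and Tie1 by 0.89 (adjusted p = 4.55e-05). The ligand genes Angpt1 and Vegfc rose by 2.05 (adjusted p = 0.000910) and 1.13 (adjusted p = 0.000208). Vegfa, the main ligand of the Kdr receptor and named for that reason outside the naming rule, fell by 0.64 from 322 ± 114 to 207 ± 21.7 CPM (adjusted p = 0.00313). Tek, Flt4 and Tie1 each also stand in another of the lists. Ripk3-/- mice had 2 rises and 5 falls on CD-HFD and 1 and 4 on CD-LFD, and Mlkl-/- mice 3 rises and 1 fall on CD-HFD and 0 and 6 on CD-LFD. Of 10 angiocrine genes, the signals that sinusoidal cells send to hepatocytes and neighbours, 1 rose and 3 fell on CD-HFD in WT mice (median -0.47), where 23.5% and 24.1% of all genes did, so that these counts lay below or near the background. On CD-LFD 4 fell (median -0.56), where 14.0% of all genes did. The Notch ligand gene Dll4 fell by 1.29 (adjusted p = 4.16e-05), Bmp2, an inducer of hepcidin, by 0.81 (adjusted p = 0.00191) and Nos3, endothelial nitric oxide synthase, by 0.74 (adjusted p = 0.0400), while the endothelin gene Edn1 rose by 1.37 from a level of 0.498 CPM (adjusted p = 0.0484). In Ripk3-/- mice 3 angiocrine genes fell on CD-HFD, with 2 rises and 1 fall on CD-LFD. Mlkl-/- mice had 2 rises on CD-HFD and 3 falls on CD-LFD. Beside the shares of all genes (21.7% lower, 14.0% higher and 10.1% lower in Ripk3-/- mice, 24.9% higher and 18.3% lower in Mlkl-/- mice), these counts of 10 genes were near the background.

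**Figure D4:**
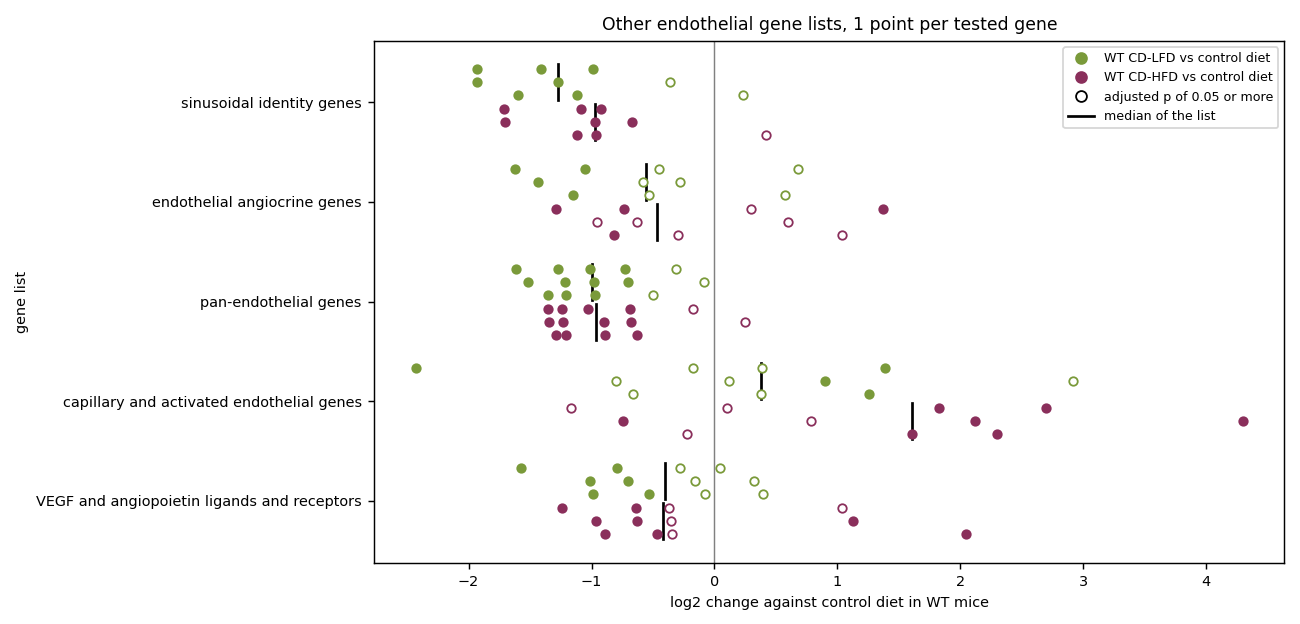
Log2 change against control diet in WT mice of each tested gene of the 5 lists (y axis), with CD-LFD in green and CD-HFD in purple, filled where the adjusted p is under 0.05; black lines mark list medians. Sinusoidal and general endothelial genes lie mostly below 0, with medians of -0.97 and -0.96 on CD-HFD, and the capillary and activated genes mostly above it, with a median of 1.60.

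In knockout against WT livers on control diet 0 of these sinusoidal, angiocrine and VEGF list genes were called in Ripk3-/- mice, with 2 general endothelial genes lower and 1 capillary gene higher, where 2.25% of all genes were called higher and 2.23% lower. Mlkl-/- mice had 2 sinusoidal, 3 general endothelial and 2 VEGF list genes lower, 1 VEGF list gene and 4 capillary genes higher, and 0 angiocrine genes called, where 13% of all genes were called higher and 14.1% lower. On CD-LFD and CD-HFD 0 list genes differed between either knockout and WT. The Mlkl-/- response to CD-HFD was called higher than that of WT for 2 sinusoidal and 1 general endothelial gene, and lower for 1 capillary and 1 VEGF list gene, beside 1.58% of all genes higher and 2.54% lower. Its median difference over the 9 sinusoidal genes was 0.93 and over the 14 general endothelial genes 0.78, beside 0.08 over all genes tested. Markers of other cells moved with it, and their part was not tested: the median was 1.38 over 5 Kupffer cell markers, 2.04 over 3 B cell markers, 0.63 over 6 macrophage markers and 0.39 over 6 stellate cell and fibroblast markers, with 1 of these genes called, a B cell marker, and 0.12 over 5 hepatocyte markers. On CD-LFD the same test called 1 sinusoidal gene higher and 1 capillary and 1 VEGF list gene lower, beside 4.37% of all genes higher and 4.08% lower. The Ripk3-/- responses had 0 calls in any list on either diet. Between CD-HFD and CD-LFD 13.7%, 5.75% and 14.6% of all genes were called higher in WT, Ripk3-/- and Mlkl-/- mice, and 7.4%, 3.08% and 9.14% lower. There 5 of 11 capillary genes rose in WT, 4 in Ripk3-/- and 6 in Mlkl-/- mice, as did 1, 0 and 3 of the 14 general endothelial genes. The sinusoidal list had 1 fall in WT, 0 calls in Ripk3-/- and 2 rises in Mlkl-/- mice, the angiocrine list 3, 0 and 2 rises, and the VEGF list 4, 1 and 4 rises with 1 fall in Mlkl-/- mice.

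Markers of other cells that carry some of the members moved with diet, and their part in the results was not tested. All 6 macrophage markers rose on CD-HFD in every genotype, and their summed level was 71.5 to 106 CPM in WT controls, 199 to 417 after CD-LFD and 1026 to 2060 after CD-HFD, beside Stab1, Pdgfb and Vcam1, which macrophages also express. Of 6 stellate cell and fibroblast markers 5 rose on CD-HFD in every genotype, with sums of 181 to 214, 275 to 507 and 648 to 1215 CPM in WT mice, in the order in which Cd34 rose. Among 5 tested Kupffer cell markers 3 fell in WT mice on CD-HFD, with sums of 122 to 168 CPM on control diet and 39.5 to 131 on CD-HFD, and Timd4 was at 0 in 7 libraries. The 4 B cell markers summed to 0.976 to 8.29 CPM in WT controls and 4.98 to 8.65 on CD-HFD, beside 41.7 and 39.4 CPM of Fcgr2b. In Mlkl-/- mice they summed to 0.276 to 1.08 on control diet and 4.69 to 8.46 on CD-HFD. The platelet markers, beside Vwf, summed to 6.29 to 17.3 CPM in WT controls and 7.96 to 12.04 on CD-HFD, with Gp9 at 0 in 22 libraries. That sum joins opposite moves in WT mice: mean Pf4 went from 0.504 to 4.84 CPM and mean Itga2b from 8.74 to 4.05. Of 2 tested platelet markers 1 was called higher and 1 lower there, and in each knockout on CD-HFD 1 higher and 0 lower. Of the lymphatic markers, beside Lyve1, Pdpn, Ccl21a and Mmrn1 were at 0 in 8, 12 and 16 libraries, and Prox1 is also a hepatocyte gene. From control diet to CD-HFD in WT mice, mean Pdpn went from 0.200 to 1.79 CPM and mean Prox1 from 120 to 66.2. Of 3 tested lymphatic markers 1 was called higher and 1 lower there, and 2 higher and 1 lower in each knockout. The 5 hepatocyte markers all fell in WT mice on CD-HFD, from a sum of 85275 to 151520 CPM to 52707 to 88731.

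Between mice of the same group some members varied together. After each group's mean was removed, Clec4g and Kdr had a Pearson correlation of log2 CPM of 0.76 over the 44 libraries, Clec4g and Plvap 0.61, Stab1 and Stab2 0.60 and Kdr and Plvap 0.54. Over all 45 pairs the median was 0.19, with 36 above 0 and a lowest value of -0.22 between Stab2 and Cd34. These are descriptions, since members of a library share its depth and its mix of cells. Cd34 had no member with which it varied closely, its highest value being 0.34 with Pecam1.

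**Figure D5:**
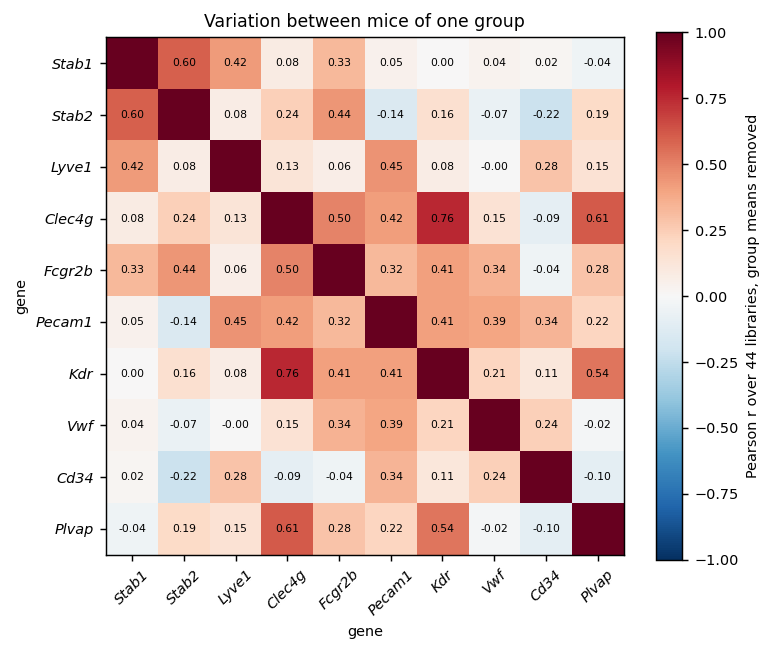
Pearson correlation of log2 CPM over 44 libraries between every pair of the 10 genes (both axes), after group means were removed. Clec4g, Kdr and Plvap form a block with values of 0.54 to 0.76, apart from the pair of Stab1 and Stab2 at 0.60.

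By the same measure over all tested genes, Kdr was closest to Aqp1, an endothelial and biliary water channel (0.84), Oit3 (0.77) and Dnase1l3 (0.76), and Clec4g to Dnase1l3 (0.76), Kdr and Mrc1, the mannose receptor of sinusoidal cells and macrophages (0.71). Pecam1 was closest to Ets1 (0.65), Oit3 (0.62) and Inhbb (0.59), and Fcgr2b to Lfng (0.62), Tspan13 (0.62) and Mrc1 (0.59). Stab1 was closest to Arap3 (0.84), Myo7a (0.82) and Gigyf1 (0.80), and Stab2 to Camta2, Hnrnpl and Ehmt2 (0.76 each). Plvap stood with the collectin genes Colec11 (0.69) and Colec10 (0.67) and with Cyp4b1 (0.64), and Cd34 with Igfbp7, Prom1 and Wls (0.69 each). Lyve1 was closest to Trim30a (0.62), Gpr4 and Hic1 (0.61 each), and Vwf to Sash3, Sh3rf1 and Ppp1r9b (0.64 each).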

How the data were processed

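Whole-liver RNA of 44 mice was sequenced, 1 library per mouse; per the labels' protocols, a stranded kit was used. The deposited table holds raw counts per Ensembl gene, which the authors made with tools that the submitters' processing notes list as FastQC, STAR, HTSeq, edgeR and limma, on GRCm39. The strand setting of the counting is not given in the sources used here. Symbols came from a table of gene names matched by Ensembl identifier, and 34373 of 35249 genes matched. Groups were taken from the labels.

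Counts were fitted with edgeR 4.0.16 (R 4.3.3): TMM factors (0.799 to 1.34), filterByExpr with a minimum count of 10 (14862 genes, 99.85% of counts), a quasi-likelihood fit with 1 mean per group over all 44 libraries, and Benjamini-Hochberg adjustment within each of 19 comparisons at a threshold of 0.05. Intervals are ± 1.96 SE. Pearson correlations used log2 CPM with a prior count of 2. The fit was tested on simulated data. DESeq2 1.42.0, other scalings, filters, sample sets, a replicate block, clock phase and leaving out libraries were tried as alternatives. Replicates are separate mice, and no 2 libraries of a group agreed within sampling noise (93 pairs). In 0 of 36 group pairs did every same-numbered pair of libraries correlate by over 0.1, so the numbers were not taken as pairs.

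The text names all 10 members, the 3 largest rises and 3 largest falls among called genes of each list in WT CD-HFD against control diet, and the 3 genes most alike to each member. The members, lists and alternatives were chosen with earlier results of these data known. Promoters are RefSeq entries on GRCm38.p6.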

Additional observations from a re-analysis of the deposited data

Results flagged for a closer look

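Among 70 pairs of a member and a group of 4 or more mice, 8 had 1 mouse far from the rest on the log2 scale, where chance gives about 1 in 20. WT CD-LFD replicate 3, the library with the most counts, was lowest of its group for Stab1 (37.3 CPM) and for Lyve1 (2.72 CPM). Plvap was 30.9 CPM in Mlkl-/- CD-LFD replicate 4 against 68.7 to 72.3 in the other 3 mice, and that mouse was also lowest of its group for every member but Lyve1 and Cd34. Cd34 was 17.0 CPM in WT CD-HFD replicate 3, the highest of all WT mice, and 0 in Mlkl-/- control replicate 1. Vwf was 4.27 CPM in Ripk3-/- control replicate 1, the lowest of its group, and 11.4 CPM in Mlkl-/- control replicate 4, the highest. Stab2 was 39.0 CPM in Ripk3-/- CD-HFD replicate 1, below a narrow range of 46.3 to 47.5 CPM.

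The response to diet differed between Mlkl-/- and WT mice, by the test of the difference, for Fcgr2b on CD-LFD (0.96 on the log2 scale) and CD-HFD (0.94) and for Kdr on CD-HFD (1.55).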

How the results depend on the processing

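Of the members' changes recomputed under other settings, 1453 kept their direction and side of the threshold, 32 newly passed and 33 no longer passed. A further 79 changed sign with neither value called, 23 of them under library-size scaling, and 3 changed sign with 1 of the values called. Of those that left out 1 mouse, 2166 kept both, 125 changed sign with neither value called, 22 newly passed and 47 no longer passed. The 3 sign changes with a call came with library-size scaling: Fcgr2b 0.4232 and Pecam1 0.0221 in WT and Pecam1 0.0526 in Mlkl-/- mice, CD-HFD against control diet. Among those with none, the same scaling gave 0.0189 for Kdr, 0.5058 for Stab2, 0.4346 for Clec4g and 0.3435 for Lyve1 in Mlkl-/- mice and 0.3604 for Lyve1 in Ripk3-/- mice in that comparison. With that scaling the median of all genes reached 0.49, and with it 8 members were called for Ripk3-/- CD-HFD against control diet, 2 for Ripk3-/- CD-HFD against CD-LFD, 9 for Mlkl-/- CD-HFD against CD-LFD, 6 for WT CD-HFD against CD-LFD and 2 for Ripk3-/- against WT on control diet. In that last comparison DESeq2, RLE scaling and leaving out the WT pair 5 and 6 each gave 1. Fitting only the compared groups gave 3 for Ripk3-/- CD-HFD against CD-LFD, 2 for Mlkl-/- against WT on control diet, and 0 and 1 for the Mlkl-/- difference in response to CD-LFD and CD-HFD. With clock phase in the model the control-diet Mlkl-/- count was 2 and the CD-HFD response count 1, and without the pair 5 and 6 the former was 2 and the CD-LFD response count 2, as by DESeq2. With no filter on low counts, Mlkl-/- CD-HFD against control diet gave 3 and the Mlkl-/- CD-HFD response 1. The causes were not tested.

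Leaving out 1 mouse moved the counts to 6 to 8 (WT CD-HFD against control diet), 5 to 5 (WT CD-LFD against control diet), 3 to 5 (WT CD-HFD against CD-LFD), 5 to 6, 3 to 6 and 0 to 1 (Ripk3-/- CD-HFD and CD-LFD against control diet and against each other) and 3 to 5, 3 to 5 and 2 to 4 (Mlkl-/-, in that order). They were 0 to 1 for Ripk3-/- and 4 to 5 for Mlkl-/- against WT on control diet, 1 to 2 for the Mlkl-/- response to either diet, and 0 to 1 for the Ripk3-/- response to CD-HFD. The replicate block changed no count of called members (7 in WT CD-HFD against control diet). Same-numbered mice correlated by 0.0028 on average over all group pairs, but by 0.265, 0.196 and 0.143 between WT mice on control diet and CD-LFD, control diet and CD-HFD, and CD-LFD and CD-HFD. The first of these ran from 0.0369 to 0.545, and 13 of 44 libraries matched their own number best.

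Over all genes, many counts moved by more than 1.5 times, these among them. Fitting only the compared groups gave 2281 in place of 4117 for WT CD-LFD, 2786 in place of 1312 for Ripk3-/- CD-HFD against CD-LFD, 62 in place of 665 and 1730 in place of 4029 for Ripk3-/- and Mlkl-/- against WT on control diet, and 228 in place of 612 for the Mlkl-/- CD-HFD response. With clock phase in the model 123 and 2528 were called between the knockouts and WT on control diet, and 7 and 1 in place of 164 and 381 on CD-LFD. It also gave 25 in place of 71 for the Ripk3-/- CD-HFD response. For that response DESeq2 gave 207, the compared groups 20 and leaving out the pair 5 and 6 149. For the Mlkl-/- CD-HFD response DESeq2 gave 968 and leaving out the pair 986, and that pair also moved WT CD-LFD to 6383 and control-diet Ripk3-/- against WT to 353. Of the Ripk3-/- CD-LFD response, with 4 calls, DESeq2 gave 32, no filter 22 and the compared groups 0. The Mlkl-/- CD-LFD response had 691 in place of 1256 with the compared groups. Against WT, DESeq2 gave 258 and 618 on CD-LFD and 126 in place of 56 and 2 in place of 0 on CD-HFD for Ripk3-/- and Mlkl-/-, where the compared groups gave 252 and 2, and library-size scaling gave 873 for Mlkl-/- on CD-LFD. Without 1 mouse the lowest counts were 1360 in place of 3576 for Ripk3-/- CD-LFD, 500 for Ripk3-/- and 1926 in place of 3523 for Mlkl-/- CD-HFD against CD-LFD, and 21 for Ripk3-/- against WT on CD-LFD. Depth limits Cd34 most, at 0 to 14 counts in control libraries, and the knockout groups on the choline-deficient diets held only 3 or 4 mice.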
